A study of Homo sapiens with 24 samples.

Results

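The levels of 9 histone genes of 14493 genes in a read-count table were followed in SKBr3 cells, an established HER2-positive human breast cancer cell line. The genes were chosen by name, with earlier results of these data known, and are given whatever their change. All 9 were in the table: the linker histones H1-2 and H1-10, the H2A genes H2AC6, H2AJ and H2AZ1, and the H2B genes H2BC4, H2BC5, H2BC12 and H2BC21. The 24 libraries fall into 8 groups of 3. Untreated cells were taken on day 0 or kept until day 7, and are called day-0 and day-7 cells. The 6 drug-treated groups were collected on day 7 after refeeding on day 3: ND-646 at 250 nmol/L, an inhibitor of the fatty acid synthesis enzyme acetyl-CoA carboxylase, TVB-3166 at 250 nmol/L, an inhibitor of fatty acid synthase, bleomycin at 10 µmol/L and doxorubicin at 10 nmol/L, which damage DNA, alisertib at 500 nmol/L, an Aurora A kinase inhibitor, and palbociclib at 1 µmol/L, a CDK4/6 inhibitor that the labels spell Palboclib. The study used these drugs as inducers of therapy-induced senescence (TIS). All groups are 1 cell line, and nothing in the labels says whether replicates came from separate cultures, so p-values measure only the spread between these libraries, which may be technical.

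Histones package DNA in the nucleosome, in which H2A and H2B pair up beside H3 and H4, and linker histone H1 binds where the DNA enters and leaves. Most histone genes are replication-dependent: they are transcribed in S phase, lack introns, and their mRNAs end in a conserved stem-loop, bound by the stem-loop binding protein SLBP, in place of a poly(A) tail. Replication-independent variants such as H2A.Z, from H2AZ1, are polyadenylated and made throughout the cell cycle. Several replication-dependent genes can also give polyadenylated transcripts, which are known to accumulate in differentiated or growth-arrested cells.

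The stem-loop was looked for in the reference because it separates these 9 genes by how their mRNA ends. A match to the histone stem-loop consensus stood within 100 bases after the annotated stop codon in 6 of the 9 genes, against 71 of 20021 protein-coding genes (0.355%). The 6 genes were H1-2, H2AC6, H2BC4, H2BC5, H2BC12 and H2BC21, and no match was found in H1-10, H2AJ or H2AZ1. The 6 sites on GRCh37 follow, 5′ to 3′ on the strand of the gene, with the stem and loop in capitals.
H1-2, chr6:26055967-26055992, minus strand: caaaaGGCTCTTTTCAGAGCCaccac
H2AC6, chr6:26124892-26124917, plus strand: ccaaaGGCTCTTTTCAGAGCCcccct
H2BC4, chr6:26123695-26123720, minus strand: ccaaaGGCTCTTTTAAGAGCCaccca
H2BC5, chr6:26158810-26158835, plus strand: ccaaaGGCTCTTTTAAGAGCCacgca
H2BC12, chr6:27114140-27114165, minus strand: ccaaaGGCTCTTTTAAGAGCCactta
H2BC21, chr1:149857733-149857758, minus strand: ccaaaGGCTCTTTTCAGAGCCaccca
The sites began 28 to 57 bases after the stop codon. In the GENCODE annotation lifted to GRCh37, H1-2 and H2BC12 end at the stem-loop, H2AC6, H2BC4 and H2BC5 also have a longer transcript that reads past it, and the only transcript of H2BC21 reads past it. The read counts carry RefSeq transcript names and not this annotation, with more of them for H2BC12 than for H2AC6 or H2BC4. Counts per gene do not separate the 2 kinds of end. The sample labels name a stranded mRNA kit and the study's methods a stranded total RNA kit, and transcripts without a poly(A) tail are counted differently by the 2.

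H2AC6 (gene ID 8334, chr6:26124373-26139344) and H2BC4 (gene ID 8347, chr6:26086545-26124154) are transcribed away from each other from a shared stretch of DNA. H1-2 (gene ID 3006, chr6:26055968-26056698), H2BC5 (gene ID 3017, chr6:26158350-26171577) and H2BC12 (gene ID 85236, chr6:27114140-27114634) lie in the same chromosome 6 histone cluster. H2BC21 (gene ID 8349, chr1:149856009-149858232) is in the smaller cluster on chromosome 1. The 3 genes without a stem-loop match lie on other chromosomes: H1-10 (gene ID 8971, chr3:129033614-129035129), H2AJ (gene ID 55766, chr12:14927339-14930936) and H2AZ1 (gene ID 3015, chr4:100869243-100871512), the last with up to 5 exons. H1-10 and H2AZ1 overlap lncRNA genes on the other strand, H1-10-AS1 and H2AZ1-DT. The long annotated span of H2BC4 covers other protein-coding genes on both strands, and that of H2BC5 a lncRNA gene on the other strand and a pseudogene. The use of strand in counting is not stated in the sources used here. H2B and H2A genes have near-identical coding sequences, so reads could be split between copies, and each single gene's value carries that uncertainty.

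Promoters of 4 genes are shown because the genes differed in their response. The 250 bases before the start site were taken from RefSeq and placed on GRCh37 by exact match. Capitals mark 3 motifs: the octamer ATTTGCAT, a known element of H2B promoters, on both strands, CCAAT on both strands, and TATAAA on the strand of the gene. No match overlapped another. The octamer was present in 4 of the 9 genes, H2AC6, H2BC4, H2BC12 and H2BC21, and in 1.66% of 27305 promoters, while CCAAT was in 33.0% and TATAAA in 7.17%.
H2BC4, chr6:26124155-26124404, minus strand: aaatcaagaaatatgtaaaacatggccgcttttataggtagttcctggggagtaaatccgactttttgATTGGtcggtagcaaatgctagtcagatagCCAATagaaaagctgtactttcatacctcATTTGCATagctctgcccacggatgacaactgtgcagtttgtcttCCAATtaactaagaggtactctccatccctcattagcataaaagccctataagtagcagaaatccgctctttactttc
H2BC12, chr6:27114638-27114887, minus strand: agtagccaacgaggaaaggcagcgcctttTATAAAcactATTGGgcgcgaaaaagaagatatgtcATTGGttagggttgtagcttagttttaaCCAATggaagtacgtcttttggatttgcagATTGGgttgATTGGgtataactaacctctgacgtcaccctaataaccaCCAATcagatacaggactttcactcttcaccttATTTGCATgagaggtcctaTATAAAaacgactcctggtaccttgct
H2BC21, chr1:149858233-149858482, minus strand: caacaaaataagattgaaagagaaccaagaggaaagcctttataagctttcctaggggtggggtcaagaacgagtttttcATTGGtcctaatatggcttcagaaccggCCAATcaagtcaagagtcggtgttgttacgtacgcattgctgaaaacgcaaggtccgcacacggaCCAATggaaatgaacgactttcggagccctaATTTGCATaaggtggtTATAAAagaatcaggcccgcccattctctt
H2AZ1, chr4:100871433-100871682, minus strand: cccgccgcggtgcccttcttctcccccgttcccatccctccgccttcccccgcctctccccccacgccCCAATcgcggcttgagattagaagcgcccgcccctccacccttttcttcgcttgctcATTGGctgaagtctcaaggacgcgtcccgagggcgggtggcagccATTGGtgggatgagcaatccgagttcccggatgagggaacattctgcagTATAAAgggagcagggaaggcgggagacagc
The window of H2BC4 is also that of H2AC6, read from the other strand and shifted by a few bases. The octamer lay 115 bases before the start of H2BC4 and 38 bases before the starts of H2BC12 and H2BC21. A match is a description of these letters and not a bound site.

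Sequencing depth was 29405121 to 44316330 counts per library. Levels are CPM, counts relative to the total of a library scaled by TMM, a between-library normalization, and were compared between groups and not between genes. The libraries had the markers of the line, with ERBB2, which encodes HER2, at 5121 to 8827 CPM, while CDH1 was not in the table. Of 8 markers of fibroblasts, endothelial cells, leukocytes and macrophages, 3 were in the table. Their summed level was 17.3 to 21.5 CPM in both untreated groups, doxorubicin, alisertib and palbociclib cells, and 35.7 to 66.7 CPM in ND-646, TVB-3166 and bleomycin cells. CD68, a lysosomal glycoprotein of macrophages and other cells, was 25.6 to 56.4 CPM in those 3 groups and 3.70 to 12.9 CPM in the other 5, and its part in the histone results was not tested. ND-646 replicate 1 stood above the other 2 ND-646 libraries for each of the 9 genes, so the ND-646 calls that change without it are given both ways.

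The 9 genes had different profiles over the 8 groups, as the plot of levels by library shows. In an edgeR quasi-likelihood F test of any difference between the 8 groups, 8 of the 9 passed an adjusted p of 0.05, from 0.00304 for H2BC12 to 8.7e-09 for H2BC4. H2AJ did not (adjusted p = 0.147), with group means between 34.4 and 52.1 CPM. In bulk RNA, fewer cells with a transcript and less of it per cell cannot be told apart. The highest group mean stood 5.87 times above the lowest for H2BC4, 5.57 times for H1-10 and 4.05 times for H1-2, against 1.51 times for H2AJ.

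**Figure D1:**
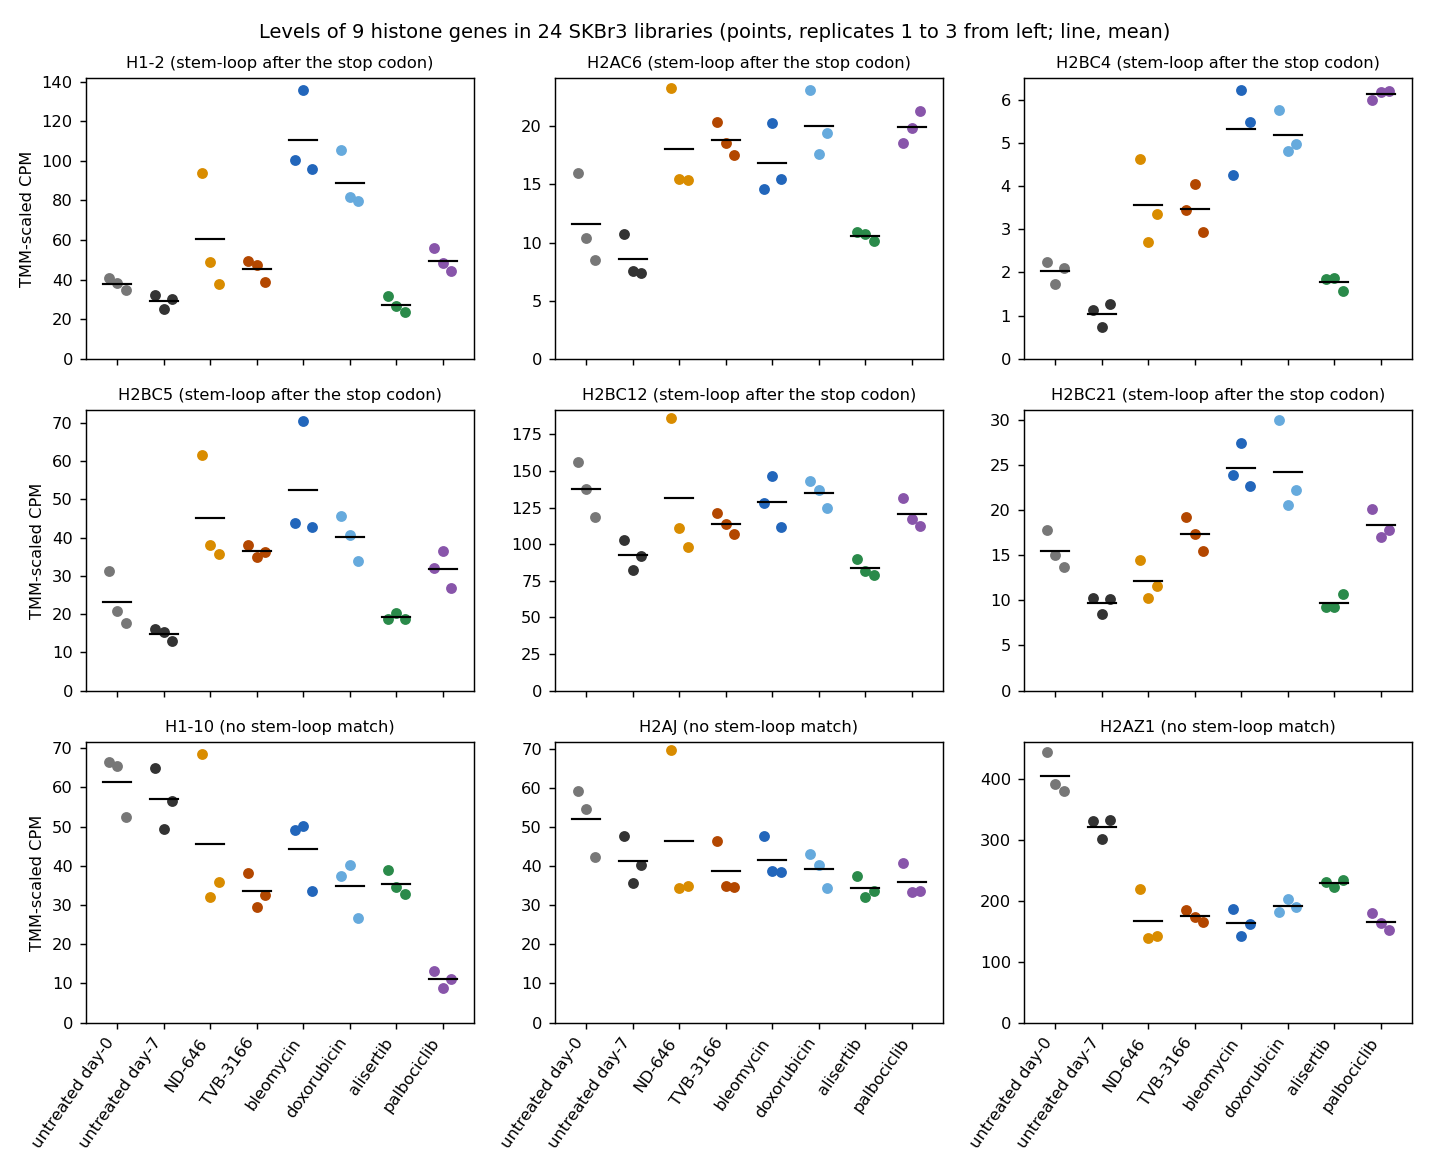
TMM-scaled CPM (y axis, from 0) of the 9 histone genes in the 8 groups (x axis), with 1 point per library and a line at the mean of 3. H2BC4 was lowest in untreated day-7 cells and highest in palbociclib cells, H1-10 was lowest in palbociclib cells (8.70 to 13.3 CPM), and H2AZ1 was higher in both untreated groups than in any drug group.

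Few genes were called in untreated cells over the 7 days. None of the 9 genes passed the test in day-7 against day-0 cells, where 0.389% of genes tested were called higher and 0.198% lower. All 9 estimates were below 0, however, and 7 had an unadjusted p under 0.05, the largest being H2BC4 at -0.94 ± 0.28 (log2 fold change ± SE, adjusted p = 0.10) and H2BC21 at -0.67 ± 0.14 (adjusted p = 0.0609). DESeq2 called 4 genes lower, H2BC5, H2BC12, H2BC21 and H2AZ1. With the replicate number as a block, edgeR called 5 lower, these and H2BC4. The shares of all genes called in these fits are not given here. The choice of untreated reference therefore bears on each drug comparison, and both are given; the 6 comparisons with one reference share its 3 libraries.

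Against day-0 cells, members rose and fell in the same drug group except with alisertib. Among these 9 genes, the calls in the other drug groups divided by the stem-loop. Replication-dependent histone genes outside the 9, given below, fell as well as rose. All 9 passed the filter on low counts in each comparison. In ND-646 cells 2 genes rose (H2BC4 and H2BC5) and 1 fell (H2AZ1), where 19.1% of all genes tested rose and 18.8% fell. In TVB-3166 cells 3 rose and 3 fell, against 27.4% and 27.7% of all genes. In bleomycin cells 4 rose and 2 fell (24.1% and 25.3% of all genes), and in doxorubicin cells 5 rose and 3 fell (23.7% and 24.8%). Alisertib differed in that none rose and 6 fell, against 17.7% and 19.6% of all genes; no gene had an unadjusted p under 0.05 on the higher side there, and DESeq2 also called none higher. In palbociclib cells 3 rose and 3 fell (26% and 27.2% of all genes). Every gene that rose in any of the 6 drug groups was among the 6 with a stem-loop, and outside alisertib every gene that fell was among the 3 without.

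Left-out libraries moved the ND-646 count most. Without ND-646 replicate 1, 6 genes were called, 1 higher and 5 lower: H2BC5 stayed higher and H2AZ1 lower, H1-10, H2AJ and the stem-loop genes H2BC12 and H2BC21 were called lower, and H2BC4 was not called. The median of the 6 stem-loop genes was then 0.30 and that of the 3 others -0.86, where 27.1% of all genes tested rose and 27.8% fell. Without untreated day-0 replicate 2 or 3, H2AZ1 alone was called, lower. No count in the other 5 drug groups against day-0 moved by over 1.5 times when 1 library was left out.

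Against day-7 cells the split by stem-loop was sharper. Part of this came with the reference: untreated day-7 cells had medians of -0.60 for the 6 stem-loop genes and -0.32 for the 3 others against day-0. All 6 genes with a stem-loop were higher in TVB-3166, bleomycin, doxorubicin and palbociclib cells, and 4 of the 6 in ND-646 cells. The same 4 were higher without ND-646 replicate 1, with H1-10 and H2AZ1 lower, and the median of the 6 was 0.71. In that fit 26.7% of all genes tested were higher and 28.3% lower. Of the 3 genes without, none was higher in any drug group. The shares of all genes tested that were higher and lower were 17.2% and 17.1% in ND-646 (4 and 1 of the 9), 25.4% and 26.1% in TVB-3166 (6 and 2), 22.4% and 23.2% in bleomycin (6 and 1), 21.9% and 21.5% in doxorubicin (6 and 2), and 22% and 22.9% in palbociclib cells (6 and 2). Alisertib again stood apart, with 1 of the 9 higher (H2BC5) and 2 lower (H1-10 and H2AZ1), against 9.55% and 9.49% of all genes. With the replicate number as a block, 5 were called in alisertib cells, as H2BC4 was then also higher (0.78, adjusted p = 0.0450) and H2AJ also lower (-0.24, adjusted p = 0.0287). The share of all genes called in that fit is not given here. The median log2 fold change of the 6 stem-loop genes was 1.06, 0.99, 1.60, 1.41, 0.17 and 1.02 in ND-646, TVB-3166, bleomycin, doxorubicin, alisertib and palbociclib cells, and that of the 3 others was -0.33, -0.76, -0.35, -0.69, -0.48 and -0.95; over all genes tested it was 0.00 to 0.02 in each.

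**Figure D2:**
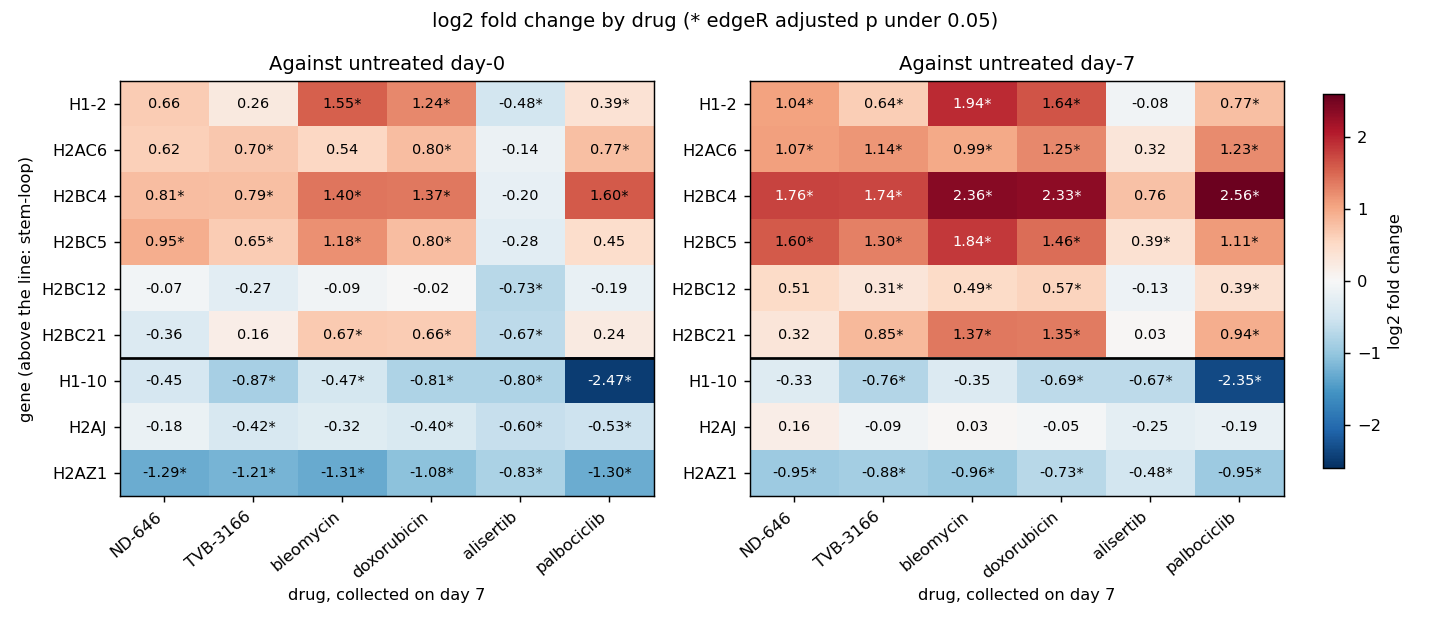
log2 fold changes of the 9 genes (rows) in the 6 drug groups (columns) against untreated day-0 cells (left) and untreated day-7 cells (right), in color from -2.6 to 2.6, with an asterisk at an edgeR adjusted p under 0.05. Above the black line are the 6 genes with a stem-loop, positive in nearly every column against day-7, where with alisertib the values run from -0.13 to 0.76 and only H2BC5 carries an asterisk, and below it the 3 without, led by H1-10 at -2.47 and -2.35 with palbociclib.

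H1-2 encodes H1.2, a replication-dependent somatic linker histone with a known role in the apoptotic response to DNA breaks. Its level was 41.0, 38.1 and 34.6 CPM in day-0 and 32.0, 25.3 and 30.2 CPM in day-7 untreated cells. It was 100.4, 136 and 95.7 CPM with bleomycin and 106, 82.0 and 79.5 CPM with doxorubicin. Each of these 6 libraries lay above every untreated library. H1-2 rose 2.94-fold with bleomycin (log2 1.55 ± 0.15, adjusted p = 7.4e-05) and 2.37-fold with doxorubicin (1.24 ± 0.12, adjusted p = 5.8e-05) against day-0, and 3.84-fold and 3.11-fold against day-7. With alisertib the level was 31.9, 26.5 and 23.6 CPM, and with palbociclib 55.8, 48.3 and 44.3 CPM. These moved in opposite directions against day-0, by -0.48 ± 0.12 (adjusted p = 0.0119) and 0.39 ± 0.11 (adjusted p = 0.0151). Both calls were weak, as the first was lost without alisertib replicate 3 (-0.38, adjusted p = 0.0605) and the second without palbociclib replicate 1 (0.28, adjusted p = 0.0758) or untreated day-0 replicate 3 (0.32, adjusted p = 0.0512). ND-646 cells had 94.0, 49.0 and 37.9 CPM and TVB-3166 cells 49.4, 47.5 and 38.6 CPM. Neither differed from day-0 by the test (0.66 ± 0.30, adjusted p = 0.110, and 0.26 ± 0.12, adjusted p = 0.0781). Without ND-646 replicate 1 the first was 0.20 (adjusted p = 0.257). A call was made for ND-646 without its replicate 3 (0.90, adjusted p = 0.0296) and for TVB-3166 without its replicate 3 (0.36, adjusted p = 0.0302) or untreated day-0 replicate 1 (0.32, adjusted p = 0.0370). Against day-7 both were higher, at 1.04 ± 0.31 (adjusted p = 0.0313) and 0.64 ± 0.12 (adjusted p = 0.00096), the ND-646 call being lost without untreated day-7 replicate 1, 2 or 3 (log2 fold change 0.95 to 1.11, adjusted p 0.0844 to 0.112).

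H1-10 encodes H1.10 (H1X), a replication-independent linker histone. It was 66.5, 65.5 and 52.5 CPM in day-0 and 65.1, 49.3 and 56.6 CPM in day-7 cells, and 13.3, 8.70 and 11.2 CPM in palbociclib cells. These 3 libraries were the lowest of the 24, the next being doxorubicin replicate 3 at 26.6 CPM. H1-10 fell 5.55-fold with palbociclib against day-0 (log2 -2.47 ± 0.16, adjusted p = 2.2e-06) and 5.11-fold against day-7. The levels were 38.3, 29.5 and 32.6 CPM with TVB-3166, 37.5, 40.2 and 26.6 CPM with doxorubicin and 38.9, 34.7 and 32.8 CPM with alisertib. H1-10 fell in all 3 groups against both references, by 0.80 to 0.87 on the log2 scale against day-0 and 0.67 to 0.76 against day-7. The bleomycin libraries held 49.2, 50.1 and 33.7 CPM, and the fall against day-0 (-0.47 ± 0.17, adjusted p = 0.0403) was lost without bleomycin replicate 3 (-0.30, adjusted p = 0.123) or untreated day-0 replicate 1 (-0.42, adjusted p = 0.0952) or 2 (-0.42, adjusted p = 0.125). With ND-646, replicate 1 was at 68.5 CPM and the other 2 at 32.1 and 35.8 CPM. The 3 together did not differ from day-0 (-0.45 ± 0.27, adjusted p = 0.227), and without replicate 1 the level was lower against day-0 (-0.86, adjusted p = 0.00056) and against day-7 (-0.75, adjusted p = 0.000532).

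H2BC4, a replication-dependent H2B gene, had few reads, 25 to 247 counts per library. It was 2.24, 1.73 and 2.1 CPM in day-0 and 1.13, 0.724 and 1.28 CPM in day-7 cells. The highest levels were 5.99, 6.19 and 6.21 CPM with palbociclib, 4.27, 6.23 and 5.48 CPM with bleomycin and 5.77, 4.82 and 4.99 CPM with doxorubicin. These 9 libraries all lay above every untreated library. H2BC4 rose 3.02-fold with palbociclib (1.60 ± 0.19, adjusted p = 7.1e-05), 2.64-fold with bleomycin (1.40 ± 0.24, adjusted p = 0.0011) and 2.58-fold with doxorubicin (1.37 ± 0.19, adjusted p = 0.00036) against day-0. Against day-7 the rises were 5.89-fold, 5.14-fold and 5.04-fold. ND-646 cells had 4.63, 2.72 and 3.37 CPM and TVB-3166 cells 3.45, 4.05 and 2.94 CPM. These 6 libraries lay above every untreated library and below every palbociclib and doxorubicin library. The rises against day-0 were 0.81 ± 0.28 (adjusted p = 0.0479) and 0.79 ± 0.22 (adjusted p = 0.0108). The ND-646 call was lost without ND-646 replicate 1 or 3 or any of untreated day-0 replicates 1, 2 and 3 (log2 fold change 0.58 to 0.88, adjusted p 0.0772 to 0.164), and the TVB-3166 call without TVB-3166 replicate 2 (0.66, adjusted p = 0.0585). Against day-7 they were 3.39-fold (1.76 ± 0.31) and 3.33-fold (1.74 ± 0.25) higher. With alisertib it was 1.85, 1.88 and 1.56 CPM, within the range of day-0 for 2 of 3 libraries and above each day-7 library (0.76 ± 0.26, adjusted p = 0.0630).

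H2AC6, the H2A gene on the other side of the H2BC4 promoter, had a like profile, with group means correlated at r = 0.947 over the 8 groups. Its day-0 libraries spread from 8.49 to 16 CPM, and the 3 day-7 libraries held 10.7, 7.56 and 7.40 CPM. In palbociclib cells it was 18.6, 19.9 and 21.3 CPM, in doxorubicin cells 23.1, 17.7 and 19.5 CPM and in TVB-3166 cells 20.4, 18.6 and 17.6 CPM. No library of these 3 groups overlapped with an untreated one. The rises against day-0 were 0.77 ± 0.20, 0.80 ± 0.21 and 0.70 ± 0.20 (adjusted p 0.0078 to 0.0119), that of doxorubicin being lost without doxorubicin replicate 1 (0.67, adjusted p = 0.0530). Bleomycin cells (14.6 to 20.3 CPM) and ND-646 cells (15.4 to 23.3 CPM) overlapped with day-0 replicate 1 and missed the threshold (0.54 ± 0.24, adjusted p = 0.0851, and 0.62 ± 0.27, adjusted p = 0.0979). Without untreated day-0 replicate 1 both were called higher (0.83, adjusted p = 0.0101, and 0.92, adjusted p = 0.0338), while without ND-646 replicate 1 the ND-646 value was 0.40 (adjusted p = 0.179). Against day-7, H2AC6 was about 2-fold higher in each of the 5 groups (log2 0.99 to 1.25). With alisertib it was 10.1 to 10.9 CPM and not called against either reference, except against day-7 without untreated day-7 replicate 1 (0.50, adjusted p = 0.0307).

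H2BC5, a further replication-dependent H2B gene of the cluster, was 31.1, 20.8 and 17.7 CPM in day-0 and 16.2, 15.4 and 12.9 CPM in day-7 cells. It was 43.9, 70.4 and 42.7 CPM with bleomycin, 61.6, 38.0 and 35.6 CPM with ND-646, 45.7, 40.7 and 33.8 CPM with doxorubicin and 38.0, 34.9 and 36.3 CPM with TVB-3166. All 12 libraries exceeded all 6 untreated ones. The rises against day-0 ranged from 1.57-fold with TVB-3166 (0.65 ± 0.18, adjusted p = 0.0085) to 2.26-fold with bleomycin (1.18 ± 0.24, adjusted p = 0.0033). That with ND-646 (0.95 ± 0.27, adjusted p = 0.0231) was 0.66 without ND-646 replicate 1 (adjusted p = 0.0213) and was lost without untreated day-0 replicate 2 (0.87, adjusted p = 0.0922) or 3 (0.78, adjusted p = 0.0928). In palbociclib cells, at 32.0, 36.6 and 26.8 CPM, the difference from day-0 was 0.45 ± 0.19 (adjusted p = 0.0697). It passed without untreated day-0 replicate 1 (0.73, adjusted p = 0.00106), and H2BC5 was higher than in day-7 cells by 1.11 ± 0.13. With alisertib it was 18.7, 20.2 and 18.8 CPM, and the rise against day-7 (0.39 ± 0.11, adjusted p = 0.0310) was lost without any of the 3 alisertib libraries or untreated day-7 replicate 3 (0.30 to 0.41, adjusted p 0.0502 to 0.134).

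H2BC21, an H2B gene of the chromosome 1 cluster, was 17.8, 15 and 13.7 CPM in day-0 and 10.3, 8.49 and 10.2 CPM in day-7 cells. It was 23.8, 27.4 and 22.6 CPM with bleomycin and 29.9, 20.5 and 22.2 CPM with doxorubicin. These 6 libraries were the 6 highest of the 24. The rises were 0.67 ± 0.15 (adjusted p = 0.0041) and 0.66 ± 0.16 (adjusted p = 0.0072) against day-0 and 1.37 and 1.35 against day-7. With alisertib it was 9.24, 9.24 and 10.7 CPM, lower than day-0 (-0.67 ± 0.14, adjusted p = 0.0042) and 0.03 ± 0.13 from day-7. ND-646 cells held 14.5, 10.2 and 11.6 CPM and TVB-3166 cells 19.2, 17.3 and 15.4 CPM, with no overlap. Neither was called against day-0, but without ND-646 replicate 1 the ND-646 level was lower (-0.51, adjusted p = 0.0249). Palbociclib cells, at 17 to 20.1 CPM, were called higher than day-0 only without untreated day-0 replicate 1 (0.36, adjusted p = 0.0413), and higher than day-7 by 0.94 ± 0.13.

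H2BC12, which has the octamer, 6 CCAAT matches and a stem-loop, moved least of the 4 H2B genes. Its level was 119 to 156 CPM in day-0, 82.6 to 103 CPM in day-7 and 78.9 to 90.0 CPM in alisertib cells. In the other drug groups it ran from 97.9 CPM (ND-646 replicate 3) to 186 CPM (ND-646 replicate 1). Only alisertib differed from day-0 (-0.73 ± 0.11, adjusted p = 0.000888), while the 5 other drugs gave -0.27 to -0.02. Left-out libraries made it lower with ND-646 (-0.40, adjusted p = 0.0273, without ND-646 replicate 1) and with TVB-3166 (-0.36, adjusted p = 0.0155) and palbociclib (-0.29, adjusted p = 0.0471), both without untreated day-0 replicate 3. Against day-7 the sign turned. H2BC12 was higher with TVB-3166 (0.31 ± 0.09), bleomycin (0.49 ± 0.12), doxorubicin (0.57 ± 0.09) and palbociclib (0.39 ± 0.10). The TVB-3166 call was lost without TVB-3166 replicate 1 (0.26, adjusted p = 0.0524) or untreated day-7 replicate 2 (0.23, adjusted p = 0.0533) or 3 (0.30, adjusted p = 0.0551).

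H2AZ1 encodes H2A.Z.1, a variant found at promoters and made throughout the cell cycle, and was lower in every drug group. It was 444, 392 and 379 CPM in day-0 and 331, 301 and 332 CPM in day-7 cells. The 18 drug-treated libraries lay between 139 and 235 CPM, below all 6 untreated ones. The fall against day-0 was -1.31 ± 0.12 with bleomycin, -1.30 ± 0.11 with palbociclib, -1.29 ± 0.20 with ND-646, -1.21 ± 0.10 with TVB-3166, -1.08 ± 0.10 with doxorubicin and -0.83 ± 0.09 with alisertib (adjusted p 0.0014 to 3.6e-06). Against day-7 it was -0.96 to -0.48, and no call in either set was lost when 1 library was left out.

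H2AJ encodes H2A.J, a variant known to accumulate in senescent fibroblasts with DNA damage. Its mRNA was not called higher in any drug group against either reference, and the H2A.J protein was not measured. Against day-7 cells its log2 fold changes were 0.16 ± 0.27 with ND-646, 0.03 ± 0.14 with bleomycin, -0.05 ± 0.12 with doxorubicin, -0.09 ± 0.14 with TVB-3166, -0.19 ± 0.12 with palbociclib and -0.25 ± 0.11 with alisertib, none of which passed the test; the last did without untreated day-7 replicate 2 (-0.35, adjusted p = 0.0376). Day-0 libraries held 59.3, 54.7 and 42.3 CPM. Against them it fell with alisertib (-0.60 ± 0.13, adjusted p = 0.0047) and palbociclib (-0.53 ± 0.14, adjusted p = 0.0077), whose 6 libraries held 32.0 to 40.8 CPM. The falls with TVB-3166 (-0.42 ± 0.15, adjusted p = 0.0306) and doxorubicin (-0.40 ± 0.14, adjusted p = 0.0330) were each lost without any of 4 libraries: for TVB-3166, its replicates 2 and 3 and untreated day-0 replicates 1 and 2 (-0.39 to -0.32, adjusted p 0.0684 to 0.125), and for doxorubicin the same numbers of both groups (-0.42 to -0.30, adjusted p 0.0640 to 0.129). With bleomycin (-0.32 ± 0.15, adjusted p = 0.10) a fall was called without bleomycin replicate 1 (-0.43, adjusted p = 0.0471) or untreated day-0 replicate 3 (-0.44, adjusted p = 0.0342). In ND-646 cells replicate 1 was at 69.8 CPM, the highest of the 24, and the others at 34.5 and 35.1 CPM. Without it H2AJ was lower than in day-0 cells (-0.59, adjusted p = 0.00828).

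DNA-damaging drugs were next compared with kinase inhibitors in a fit of all 24 libraries, to ask whether the response differed by drug class. Of the 9 genes, 6 were higher in bleomycin and doxorubicin cells than in alisertib and palbociclib cells, against 16.2% of all genes tested, and none was lower, against 16.5%; none had an unadjusted p under 0.05 on the lower side, and DESeq2 was not run on this contrast. H1-2 differed most (1.43 ± 0.16, adjusted p = 8.7e-07), at 79.5 to 136 CPM in the 6 libraries of one class and 23.6 to 55.8 CPM in those of the other. H2BC21 likewise did not overlap (20.5 to 29.9 against 9.24 to 20.1 CPM; 0.87 ± 0.11, adjusted p = 3.4e-06). H1-10 (0.99 ± 0.16), H2BC5 (0.89 ± 0.15), H2BC4 (0.68 ± 0.15) and H2BC12 (0.40 ± 0.12) overlapped between the classes. The 2 kinase inhibitors were themselves far apart: H2BC4 was 1.56 to 1.88 CPM with alisertib and 5.99 to 6.21 CPM with palbociclib, and H1-10 was 32.8 to 38.9 and 8.70 to 13.3 CPM. H2AC6 (0.34 ± 0.14, adjusted p = 0.0697) was also called with the replicate number as a block (adjusted p = 0.0332), without ND-646 replicate 1 (0.34, adjusted p = 0.0354) and without untreated day-0 replicate 1 (0.34, adjusted p = 0.0349).

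**Figure D3:**
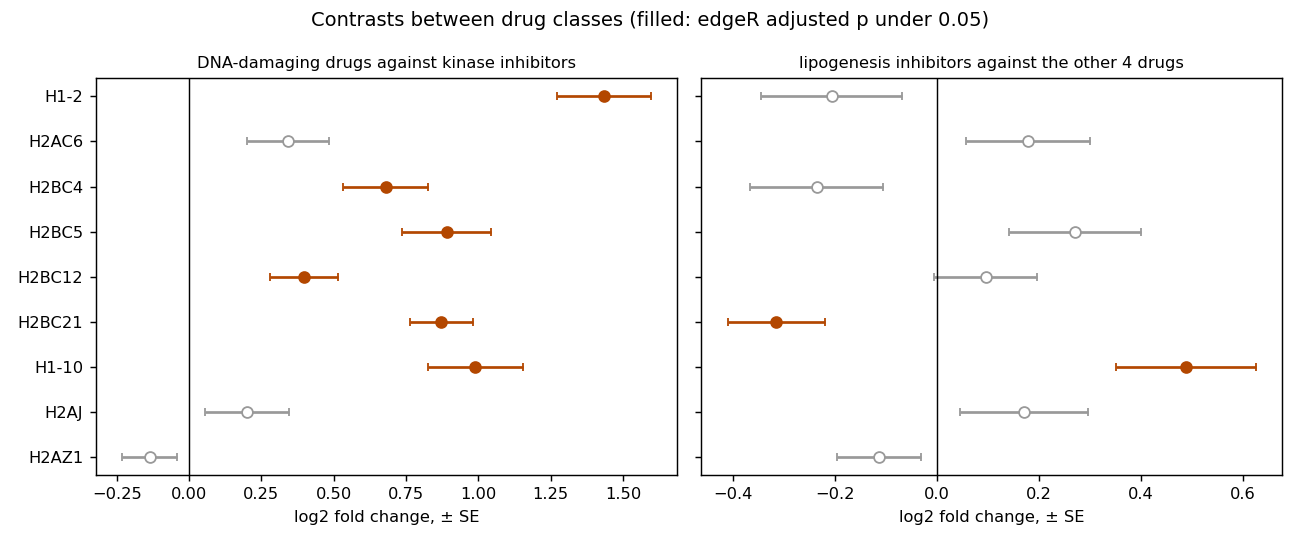
log2 fold change with its SE (x axis) of each of the 9 genes (y axis) in DNA-damaging drugs against kinase inhibitors (left) and in lipogenesis inhibitors against the other 4 drugs (right), filled where the edgeR adjusted p was under 0.05. On the left 6 points are filled, all above 0, led by H1-2 at 1.43, and on the right H1-10 at 0.49 and H2BC21 at -0.32.

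The contrast of fatty acid synthesis inhibitors with the other drugs called few of these genes, and the calls depended most on 1 library. ND-646 and TVB-3166 cells together differed from the other 4 drug groups in 1 gene higher, H1-10 (0.49 ± 0.14, adjusted p = 0.0053), and 1 lower, H2BC21 (-0.32 ± 0.10, adjusted p = 0.0084), where 26.3% and 24.7% of all genes were called. The other 4 groups held 8.70 to 50.1 CPM of H1-10, the lowest being palbociclib, and the 6 lipogenesis inhibitor libraries 29.5 to 68.5 CPM, the highest being ND-646 replicate 1. Without that library H1-10 was not called (0.27, adjusted p = 0.0508), and 4 genes were lower: H2BC21, H1-2 (-0.45, adjusted p = 0.00107), H2BC4 (-0.35, adjusted p = 0.0256) and H2AZ1 (-0.24, adjusted p = 0.00221). The shares of all genes called in that fit are not given here, so the count of 4 has no background beside it. H2BC5 (0.27 ± 0.13, adjusted p = 0.0871) was called higher without ND-646 replicate 3 (0.34, adjusted p = 0.0370) or bleomycin replicate 2 (0.34, adjusted p = 0.0216), and with the replicate number as a block (adjusted p = 0.0401).

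Between TVB-3166 and ND-646 cells no gene was called by edgeR, where 0.52% of all genes were higher and 0.198% lower. An unadjusted p under 0.05 was found for 1 gene, H2BC21 (0.52 ± 0.17, adjusted p = 0.223), and DESeq2 and the fit with the replicate number as a block called none. The estimates of the others ran from -0.43 ± 0.28 for H1-10 to 0.07 ± 0.19 for H2AC6. Without ND-646 replicate 1, 2 genes were higher with TVB-3166, H2BC21 (0.67, adjusted p = 0.0136) and H2AZ1 (0.31, adjusted p = 0.0348). For that fit, too, the share of all genes called is not given here.

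Other genes of the histone pathway gave the setting of these changes. Of 64 other replication-dependent histone genes, 29 were in the table and 22 to 26 were tested in each comparison with day-0. Not all of them are independent: H2AC18 and H2AC19 had nearly the same counts (294 to 480 and 293 to 479 at day-0) and were counted separately. Those that rose and fell numbered 2 and 4 of 22 in ND-646, 6 and 3 of 23 in TVB-3166 and 12 and 4 of 24 in bleomycin cells. They were 13 and 2 of 23 in doxorubicin, 1 and 6 of 22 in alisertib and 10 and 1 of 26 in palbociclib cells. Of all genes tested, 19.1%, 27.4%, 24.1%, 23.7%, 17.7% and 26% rose in that order of drugs. The shares that fell were 18.8%, 27.7%, 25.3%, 24.8%, 19.6% and 27.2%. With ND-646 neither count exceeded its share. The median log2 fold change of these histone genes was 0.28, 0.28, 0.79, 0.71, -0.25 and 0.48 in the same order. That of all genes tested lay between -0.01 and 0.02. Without ND-646 replicate 1 the ND-646 numbers were 3 and 4 of 23, with a median of 0.23. In that fit 27.1% of all genes tested rose and 27.8% fell. Against day-7 cells the numbers were 7 and 3 of 22, 14 and 1 of 22, 18 and 1 of 24, 17 and 1 of 24, 2 and 0 of 23, and 14 and 0 of 26. There 17.2%, 25.4%, 22.4%, 21.9%, 9.55% and 22% of all genes tested were higher. The shares that were lower were 17.1%, 26.1%, 23.2%, 21.5%, 9.49% and 22.9%. The ND-646 numbers against day-7 were 8 and 3 of 24 without ND-646 replicate 1. In that fit 26.7% of all genes tested were higher and 28.3% lower. The largest rises were in H4C8 (1.18 ± 0.24) and H4C12 (1.06 ± 0.32) with ND-646 and in the linker gene H1-3 (2.69 ± 0.45) and H4C5 (2.0 ± 0.53) with bleomycin. The largest falls were in H2BC11 (-2.39 ± 0.43) and H3C8 (-1.84 ± 0.29) with ND-646 and in H3C8 (-1.79 ± 0.30) and H2AC20 (-1.45 ± 0.51) with bleomycin. H4C5 rested on 1 to 5 counts per library at day-0 and 10 to 14 with bleomycin, H2AC20 on 16 to 27 and 3 to 13, and H2BC11 on 8 to 15 with ND-646. Copies of the same core histone thus differed in sign within 1 group. The split by stem-loop is therefore stated only for the 9 genes. H1-3, like H1-2, was higher with both DNA-damaging drugs, at 2.12, 6.61 and 3.84 CPM with bleomycin and 2.36, 2.25 and 2.11 CPM with doxorubicin against 0.448 to 0.865 CPM at day-0.

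Genes listed here as other replication-independent histones fell more often than they rose. Which of them, H2AX included, have a stem-loop match was not listed, so they do not extend the split by stem-loop. Of the 7 tested, 1 rose and 3 fell in ND-646, 1 and 4 in TVB-3166, 0 and 5 in bleomycin, 0 and 4 in doxorubicin, 0 and 5 in alisertib and 0 and 6 in palbociclib cells against day-0. In the same order 19.1%, 27.4%, 24.1%, 23.7%, 17.7% and 26% of all genes tested rose. The shares that fell were 18.8%, 27.7%, 25.3%, 24.8%, 19.6% and 27.2%. Without ND-646 replicate 1, 0 of the 7 rose and 5 fell with ND-646, where 27.1% and 27.8% of all genes did. H2AZ2, the paralog of H2AZ1, fell by 1.10 with ND-646 and 1.45 with bleomycin on the log2 scale. H2AX, whose product is phosphorylated at DNA breaks, fell by 1.19 and 1.45. CENPA, the centromeric H3, fell by 2.13 with ND-646, where MACROH2A2, a macroH2A gene, rose by 0.96 ± 0.31, a call lost without ND-646 replicate 1 (0.74, adjusted p = 0.0621).

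Of 13 histone mRNA processing genes, 4 fell in ND-646, 9 in TVB-3166, 3 in bleomycin, 3 in doxorubicin, 2 in alisertib and 4 in palbociclib cells, and 0, 0, 1, 2, 1 and 1 rose. Their medians were -0.47, -0.52, -0.17, 0.03, -0.14 and -0.20. Of all genes tested 18.8%, 27.7%, 25.3%, 24.8%, 19.6% and 27.2% fell. With all libraries, only the TVB-3166 count of processing genes stood far from that share. Without ND-646 replicate 1, 1 processing gene rose and 6 fell with ND-646 (46.2%), where 27.8% of all genes fell. SLBP, which binds the stem-loop, fell by 0.89 with ND-646 and 0.83 with bleomycin, and CSTF2, a cleavage factor subunit, by 0.96 and 0.90. SYMPK, a scaffold of the cleavage complex, rose with bleomycin (0.62 ± 0.12). Of 26 chaperone and deposition genes 15, 18, 19, 13, 12 and 16 fell and 1, 0, 2, 2, 0 and 1 rose in the same order of drugs. Their medians were -0.50, -0.55, -0.48, -0.26, -0.25 and -0.41. Without ND-646 replicate 1, 19 of these genes fell and 1 rose with ND-646. HJURP, the CENP-A chaperone, fell by 3.11 and ASF1B, an H3-H4 chaperone, by 2.79 with ND-646, and by 1.98 and 1.78 with bleomycin. NAP1L1, an H2A-H2B chaperone, rose with ND-646 (0.72 ± 0.25, and 0.36 without ND-646 replicate 1) and bleomycin (0.31 ± 0.11), as did UBN2 of the HIRA complex with bleomycin (0.45 ± 0.15).

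DNA replication genes fell in all 6 drug groups, in 5 of which stem-loop histone genes rose. Against day-0, where 18.8% to 27.7% of all genes tested fell, all 23 fell in ND-646, TVB-3166, bleomycin and palbociclib cells. In doxorubicin cells 22 of them fell and in alisertib cells 18. Their medians were -2.27, -1.80, -1.76, -1.49, -0.84 and -0.44 in that order. RRM2, a subunit of ribonucleotide reductase, fell by 3.87 with ND-646 and 2.97 with bleomycin, TYMS, thymidylate synthase, by 3.6 with ND-646, and CCNE2, cyclin E2, by 2.80 with bleomycin. Their part in the histone changes was not tested.

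**Figure D4:**
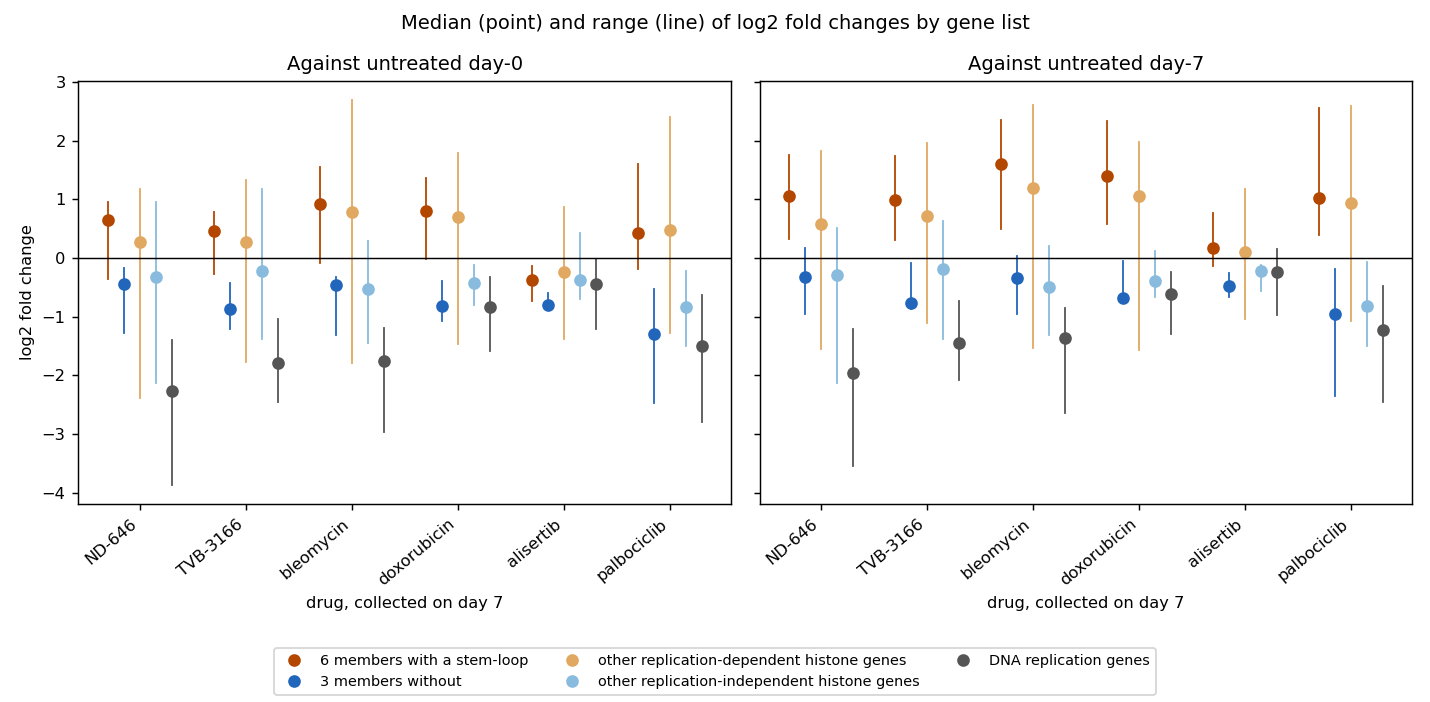
Median (point) and range (line) of log2 fold changes (y axis) in 5 gene groups for each drug (x axis) against untreated day-0 cells (left) and day-7 cells (right). Genes with a stem-loop and other replication-dependent histone genes had medians above 0 except with alisertib against day-0, while DNA replication genes had medians below 0 throughout, from -2.27 with ND-646 to -0.24 with alisertib against day-7.

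Over the 8 group means of log2 CPM, which share the depth and scaling of their libraries, the 15 pairs of stem-loop genes correlated at r = 0.640 to 0.947 (median 0.760). H2AZ1 correlated with them at -0.820 to -0.189. The genes outside the 9 whose pattern was most like theirs, by Pearson r over the 8 groups, were ATP6V1C1 (0.985) and MYL9 (0.983) for H1-2, LIPH (0.992) and H4C8 (0.986) for H2AC6, FAM83A (0.978) and PDE4DIP (0.972) for H2BC4, and VSIR (0.986) and RPS15AP10 (0.985) for H2BC5. For H1-10 they were TECRP1 (0.988) and PAK6 (0.987), for H2AZ1 NDUFA9 (0.995) and AAAS (0.995), for H2AJ POMP (0.972) and TSN (0.971), for H2BC21 SPECC1L (0.965) and ZNF597 (0.952), and for H2BC12 HOXC13-AS (0.939) and C4orf19 (0.931). H2BC12 had the lowest best match of the 9.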

How the data were processed

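RNA was sequenced in 24 libraries of SKBr3 cells. The authors used HISAT2 and GRCh37 for alignment and StringTie for assembly; the values they deposited are raw read counts, as whole numbers for each gene, and counting settings are not given in the sources used here. The lowest count in the table is 1, so genes without reads in some library are not in it. Total counts were 29405121 to 44316330 per library, so the spread between replicates set the precision for all but genes of few counts.

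The 9 genes were matched by symbol or older alias; they and the gene lists were chosen with earlier results of these data known. Some of the 64 and 8 other histone genes were not in the table. The test was that of edgeR 4.0.16, run in R 4.3.3 (filterByExpr, TMM, glmQLFit, glmQLFTest, 2-sided, Benjamini-Hochberg over all genes tested). Each pair of groups was fitted on its 6 libraries with no replicate term; contrasts of drug classes and the test over 8 groups used all 24. A gene was called at an adjusted p under 0.05, at any fold. Log2 CPM used a prior count of 2. Named from each list were the 2 largest called rises and falls in ND-646 and in bleomycin cells, and any tested histone gene. Same-numbered libraries deviated together, with each correlation over 0.1, for bleomycin (0.127 to 0.166), doxorubicin (0.102 to 0.210) and alisertib (0.114 to 0.229) against day-7. The same held for TVB-3166 against ND-646 (0.251 to 0.411). The main tests ignored this pairing. A replicate block was run only as an alternative, also in comparisons without such pairing. The tests were checked on simulated counts. Stem-loops were searched in GRCh37 and promoters were taken from RefSeq (GRCh38.p14). Alternatives were DESeq2 1.42.0, its size factors, other filters, 1 fit of all libraries, a replicate block, each library left out, the study's rule (fold change of at least 2, unadjusted p under 0.05) and day-7 as the reference.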

Additional observations from a re-analysis of the deposited data

Results flagged for a closer look

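Several genes differed between classes of drugs by a test of the difference itself, in the fit of all 24 libraries. In DNA-damaging drugs against kinase inhibitors the log2 differences were 1.43 for H1-2, 0.99 for H1-10, 0.89 for H2BC5, 0.87 for H2BC21, 0.68 for H2BC4 and 0.40 for H2BC12. In lipogenesis inhibitors against the other 4 drugs they were 0.49 for H1-10 and -0.32 for H2BC21. The H1-10 value was not called without ND-646 replicate 1 (edgeR adjusted p = 0.0508). Drugs of the same class also differed, as alisertib and palbociclib did for H2BC4 and H1-10. No group held the 4 samples that a check for outlying libraries needs.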

How the results depend on the processing

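With DESeq2, 4 genes were called in untreated day-7 against day-0 cells, all lower. In 1 fit of all 24 libraries, counts were 5 for ND-646 and 2 for untreated day-7 against day-0, and 1 for TVB-3166 against ND-646. A replicate block gave 5 in untreated day-7 against day-0 and 5 in alisertib against day-7, and moved no other count by over 1.5 times. In untreated day-7 against day-0, same-numbered libraries correlated at 0.0755 to 0.255, with 2 of the values over 0.1. Whether those libraries are paired is thus not settled. By the study's rule 1 gene was called in ND-646, 1 in TVB-3166, 3 in doxorubicin, 0 in alisertib and 3 in palbociclib against day-0. For all of these settings the shares of all genes called are not given here. These counts thus have no background beside them. With untreated day-7 as the reference, 5 were called in ND-646 and 3 in alisertib cells. With that reference the sign turned for H2BC12 (0.51 in ND-646, 0.31 in TVB-3166, 0.49 in bleomycin, 0.57 in doxorubicin and 0.39 in palbociclib), for H2BC21 (0.32 in ND-646, 0.029 in alisertib), for H2AJ (0.16 in ND-646, 0.027 in bleomycin) and, in alisertib cells, for H2AC6 (0.32), H2BC4 (0.76) and H2BC5 (0.39). H2BC12 in doxorubicin was 0.0061 among genes with at least 10 counts in every library. The cause of these moves was not tested. DESeq2 size factors and no filter on low counts moved no count by over 1.5 times.

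With 1 library left out at a time, the number of genes called in ND-646 against day-0 was 1 to 6, in TVB-3166 against ND-646 0 to 2 and in lipogenesis inhibitors against the other 4 drugs 2 to 4. Among such fits, shares of all genes called are given only for ND-646 against untreated cells without ND-646 replicate 1. Values of genes that were not called crossed 0. Against day-0 the ranges were -0.40 to 0.097 (ND-646), -0.20 to 0.0066 (bleomycin) and -0.11 to 0.077 (doxorubicin) for H2BC12, and, in alisertib cells, -0.33 to 0.17 for H2AC6 and -0.44 to 0.0053 for H2BC5. In TVB-3166 against ND-646 they were -0.66 to 0.060 (H1-2), -0.042 to 0.29 (H2AC6), -0.19 to 0.20 (H2BC4), -0.38 to 0.13 (H2BC12), -0.44 to 0.16 (H2AJ) and -0.052 to 0.31 (H2AZ1), and in lipogenesis inhibitors against the other 4 drugs -0.076 to 0.18 (H2BC12) and -0.042 to 0.26 (H2AJ).

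Of the 9 genes depth limits H2BC4 most (25 to 247 counts per library). Of the other histone genes named, H4C5 (1 to 26), H2AC20 (3 to 49), H2BC11 (8 to 132) and H1-3 (9 to 207) also had few. Reads shared between histone copies, and the unknown library kit, limit all genes with a stem-loop.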
